A study of Mus musculus with 36 samples.

Results

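The 10 genes described here mark oligodendrocyte precursors and newly formed oligodendrocytes: Pdgfra, Cspg4, Olig1, Olig2, Enpp6, Bmp4, Gpr17, Tcf7l1, Neu4 and Bcas1. They were taken by gene name from a list drawn up with earlier results of these data known, and all 10 were found in each of the 3 gene tables, which list 55450 genes at 1 month, 53379 at 2 months and 54146 at 3 months. All 10 also passed the filter on low counts at each age. RNA-seq was performed on forebrain/midbrain (F/M) and cerebellum (Cb) of Tpp1-/- mice and of controls from the same line aged 1, 2 or 3 months, with 3 libraries in each of the 12 groups and 36 libraries in all. Tpp1 encodes tripeptidyl peptidase 1, a lysosomal protease whose loss causes CLN2 disease, and the Tpp1-/- mice are homozygous for a targeted disruption in a line kept by crossing heterozygotes. The controls were labelled wt, except control replicate 3 at 1 month, which was Tpp1+/- in both regions. Each group held 1 female and 2 males at 1 month, 3 males at 2 months, and 2 males and 1 female at 3 months.

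Oligodendrocyte precursors divide in the young brain and persist in the adult, and some of them leave the cycle, pass through a short premyelinating stage and become myelinating oligodendrocytes. PDGFRA, the receptor for PDGF-A, and the proteoglycan NG2, encoded by Cspg4, are the classical surface markers of the precursors. The basic helix-loop-helix factors OLIG1 and OLIG2 are expressed through the whole lineage, with OLIG2 needed for its specification. GPR17, ENPP6, BCAS1, NEU4, TCF7L1 and BMP4 are used as markers of committed precursors and newly formed cells, and Gpr17 and Enpp6 are switched off as the cells mature. Pdgfra is also expressed by meningeal and perivascular fibroblasts, and Cspg4 by pericytes and smooth muscle.

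The libraries held 10609896 to 29942380 counts over all genes, with a median of 21049839. Tpp1 lay between 16.1 and 27.8 CPM (counts scaled to a common library depth, with TMM factors within an age) in the 18 Tpp1-/- libraries, between 42.1 and 111 CPM in the 16 wt libraries and at 46.6 and 55.9 CPM in the 2 Tpp1+/- libraries, so no Tpp1-/- library reached a control. Genes on the opposite strand share exon bases with several of the 10. Among them only Lims2, which shares 188 exon bases with Gpr17, had more than 12 counts in any library, with 141 to 391 counts per library beside 345 to 3355 for Gpr17. Within a group, the 10 genes moved together in some libraries. In F/M at 2 months, Tpp1-/- replicate 1 lay on average 0.226 above the group mean on the log2 scale, with 9 of 10 genes above it, and Tpp1-/- replicate 2 lay 0.214 below it, with 1 of 10 genes above. In control F/M at 2 months replicates 1 and 2 lay at 0.0959 and -0.0726, in control Cb at 0.0647 and -0.0564 and in Tpp1-/- Cb at 0.1145 and -0.1458, so at that age replicate 1 was above and replicate 2 below the mean in all 4 groups. The counts and medians for Tpp1-/- F/M at 2 months are given below with and without its replicates 1 and 2.

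**Figure D1:**
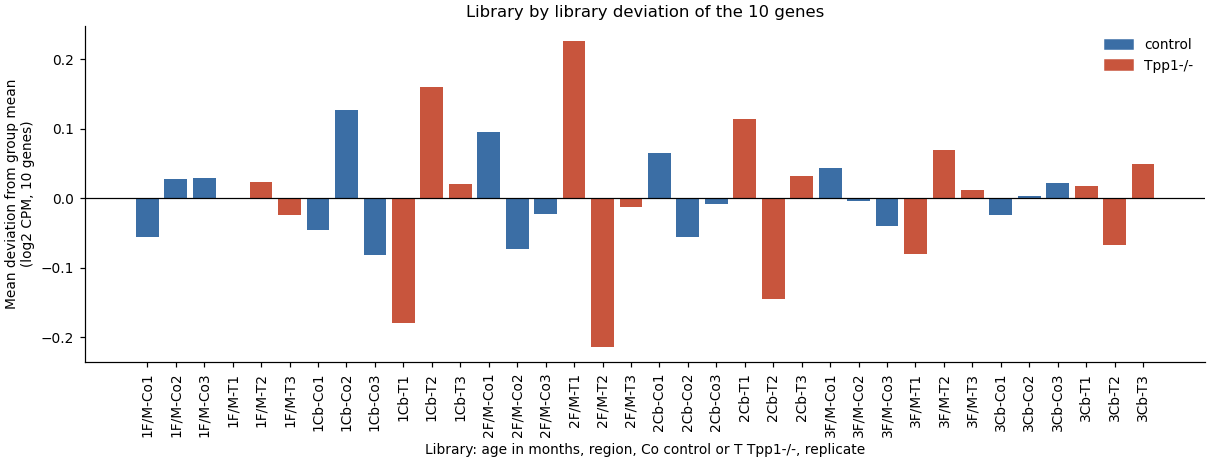
Bars give, for each of the 36 libraries, the mean over the 10 genes of the deviation from the gene's own group mean, in log2 CPM; blue bars are controls and red bars Tpp1-/-. The largest deviations are 0.226 and -0.214, in replicates 1 and 2 of the Tpp1-/- F/M group at 2 months.

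The 10 genes covered a wide range of levels. Per kilobase of exon, Olig1 (56.1 ± 4.26 CPM per kb, SD, n = 3) and Bcas1 (56.0 ± 2.94) were the highest in control F/M at 1 month, and their ranges overlapped. Gpr17 followed at 26.2 ± 2.95 CPM per kb, then Olig2 at 12.8 ± 0.954, Pdgfra at 8.46 ± 0.582, Enpp6 at 5.35 ± 0.789 and Neu4 at 3.27 ± 0.126. Bmp4 (1.85 ± 0.243 CPM per kb) and Cspg4 (1.81 ± 0.0760) could not be separated, and Tcf7l1 was lowest at 0.709 ± 0.187. At 3 months the order in control Cb was another. Bcas1 (40.9 ± 6.91 CPM per kb) lay above Olig1 (26.9 ± 2.58), and Olig2 (5.97 ± 0.113 CPM per kb) above Gpr17 (3.33 ± 0.212), both with no overlap, whereas in control F/M at 1 month Gpr17 lay above Olig2 with no overlap. Gpr17 overlapped with Pdgfra (3.01 ± 0.196 CPM per kb), below which Enpp6 stood at 2.08 ± 0.278. Tcf7l1 (1.45 ± 0.221 CPM per kb) overlapped with Neu4 (1.30 ± 0.10) and lay above Bmp4 (0.728 ± 0.177) and Cspg4 (0.673 ± 0.150) with no overlap, and these last overlapped each other. The precision is lowest for Tcf7l1 and Bmp4, whose lowest library values were 1.94 and 1.38 CPM.

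**Figure D2:**
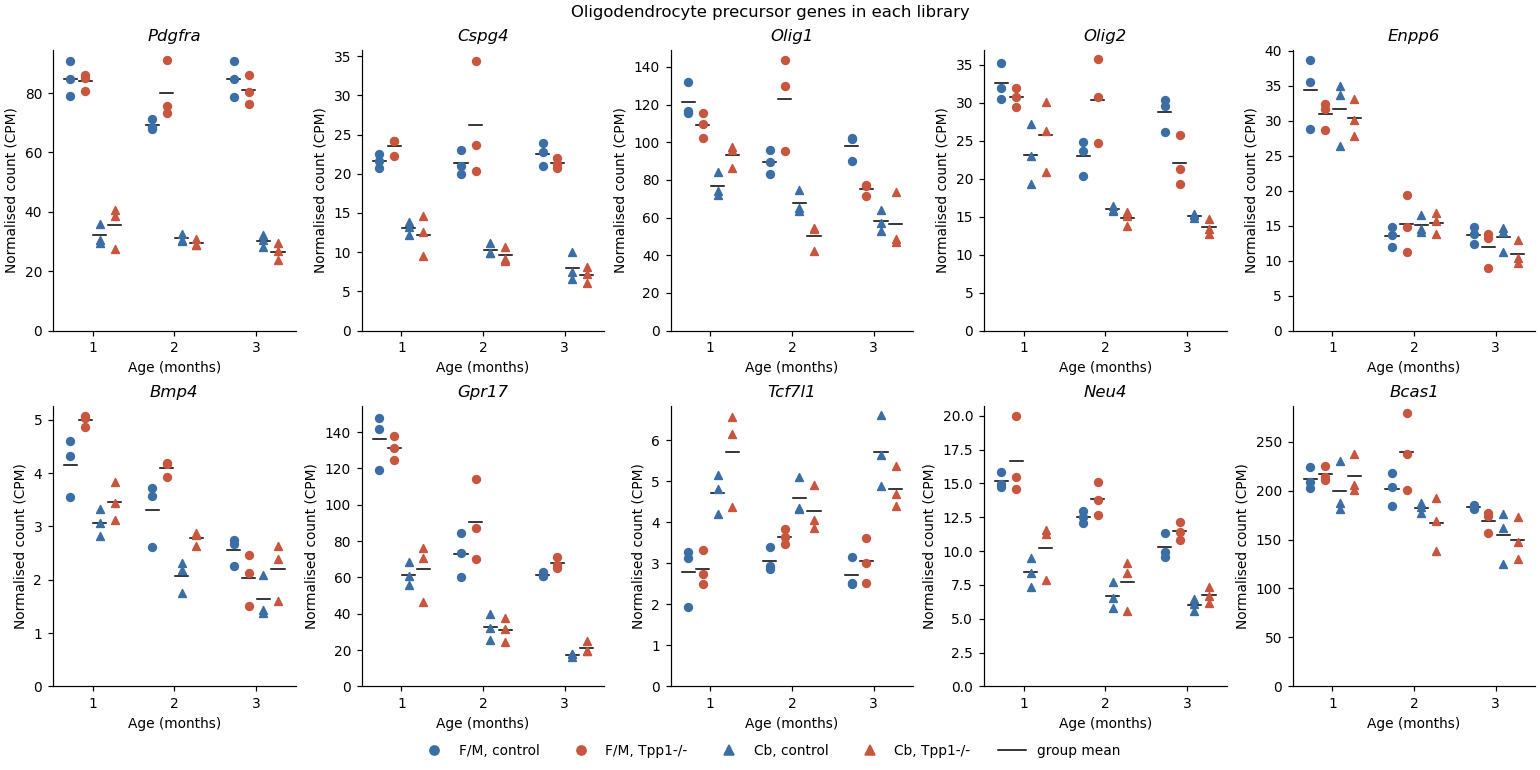
Each point is a library's normalised count in CPM (linear axis from 0, scaled within an age) at 1, 2 or 3 months; circles are F/M, triangles Cb, blue controls, red Tpp1-/-, and the black line is the mean of 3 libraries. Gpr17 and Enpp6 drop with age in both regions, Pdgfra is at 67.8 CPM or more in F/M and 40.5 CPM or less in Cb at every age, and Olig1 in F/M spreads from 95.2 to 144 CPM among the Tpp1-/- libraries at 2 months.

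The first comparison asked how the genes changed with age in the control brain. Enpp6 and Gpr17, markers of cells on their way to myelination, fell steeply between 1 and 3 months in both regions, Bmp4 fell as well, and Pdgfra did not pass the test in either region. A gene was called differentially expressed (a DEG) where it changed by 1.5-fold or more with a Benjamini-Hochberg adjusted p below 0.1, here by edgeR's quasi-likelihood test over all 18322 genes kept in the fit of the 36 libraries. By that rule 3 of the 10 genes were lower at 3 than at 1 month in F/M, where 4.26% of all genes were lower DEGs, and 5 of 10 were lower in Cb, where 2.75% were; none was higher. Each age was counted with its own version of the annotation. The strand setting was the same at 1 and 3 months and another at 2 months. Under these settings Bcas1 had 3644 to 5413, 2483 to 5598 and 2751 to 4338 counts per library at 1, 2 and 3 months. A difference between ages therefore cannot be told apart from one in how the libraries of each age were prepared or counted. RNA from whole tissue also cannot separate fewer cells of a type from less RNA per cell.

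Enpp6 (ENSMUSG00000038173, chr8:46986887-47096762, plus strand, GRCm38) encodes a choline phosphodiesterase made by newly forming oligodendrocytes. Its level in the control F/M libraries was 35.6, 38.6 and 28.7 CPM at 1 month, 14.8, 11.9 and 13.7 CPM at 2 months and 13.8, 12.4 and 14.8 CPM at 3 months. Every library at 2 and 3 months lay below every library at 1 month, and the values at 2 and 3 months overlapped. Enpp6 fell by 1.36 on the log2 scale from 1 to 2 months in F/M (SE 0.16, adjusted p = 1.59e-07) and by 1.33 from 1 to 3 months. In Cb it fell by 1.08 and 1.24 over the same intervals, from 33.7, 34.9 and 26.3 CPM at 1 month to 14.1, 14.6 and 11.3 CPM at 3 months. Between 2 and 3 months Enpp6 differed by 0.03 in F/M and by -0.16 in Cb, neither past the test.

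Gpr17 (ENSMUSG00000052229, chr18:31942997-31949636, minus strand, GRCm38) encodes a receptor that marks committed precursors and holds back their final maturation. In control F/M it read 119, 148 and 142 CPM at 1 month, 84.4, 60.4 and 73.3 CPM at 2 months and 60.9, 63.0 and 60.6 CPM at 3 months. In control Cb it read 55.6, 68.5 and 60.5 CPM, then 39.9, 25.4 and 32.3 CPM, then 16.0, 17.9 and 17.9 CPM. The 3 ages did not overlap in Cb, whereas in F/M the values at 2 and 3 months did. Gpr17 fell by 1.83 on the log2 scale from 1 to 3 months in Cb (SE 0.18, adjusted p = 6.57e-09) and by 1.16 in F/M (SE 0.17, adjusted p = 1.86e-05). It was also the only one of the 10 that passed as a DEG between 2 and 3 months, in Cb, where it fell by 0.90 (adjusted p = 0.00132) and 3.32% of all genes were DEGs.

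Bmp4 (ENSMUSG00000021835, chr14:46383520-46390669, minus strand, GRCm38), a secreted ligand that signals through SMAD1/5 and holds precursors back from maturing, fell by 0.71 in F/M (SE 0.18, adjusted p = 0.0107) and by 0.90 in Cb (SE 0.19, adjusted p = 0.00196) between 1 and 3 months. Its values in control Cb were 3.32, 3.06 and 2.82 CPM at 1 month and 1.44, 1.38 and 2.10 CPM at 3 months, with no overlap. Among the precursor markers, Cspg4 fell in Cb by 0.70 (SE 0.15, adjusted p = 0.00298), from a mean of 13.1 to 8.03 CPM, while in F/M it differed by 0.05 with a 95% interval from -0.24 to 0.35. Olig2 fell in Cb by 0.62 (SE 0.13, adjusted p = 0.00217), from a mean of 23.2 to 15.1 CPM, and differed by -0.19 in F/M (adjusted p = 0.408). Several marker sums, scaled within an age, also did not overlap between 1 and 3 months in controls. Among them, mural cell markers summed to 288 to 337 and 265 to 280 CPM in Cb. In F/M they summed to 277 to 312 and 265 to 268 CPM. Meningeal fibroblast markers in F/M summed to 141 to 152 and 118 to 125 CPM. Microglia markers in F/M summed to 428 to 455 and 491 to 520 CPM. Their part in these changes was not tested.

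Pdgfra (ENSMUSG00000029231, chr5:75152292-75198215, plus strand, GRCm38), by contrast, differed between 1 and 3 months by -0.01 in F/M (95% interval -0.22 to 0.20) and by -0.09 in Cb (-0.30 to 0.13). The F/M value at 2 months stood apart, at 71.2, 67.8 and 68.6 CPM against 79.1 to 90.7 at 1 month and 78.5 to 90.7 at 3 months. That dip passed the adjusted threshold but not the fold minimum in both directions (-0.31, adjusted p = 0.0315, and then 0.30, adjusted p = 0.0319). Bcas1, Olig1 and Neu4 were lower at 3 months in both regions without reaching 1.5-fold, with log2 fold changes from -0.57 to -0.22. Neu4 passed the adjusted threshold in F/M (-0.57, adjusted p = 0.0135) and Cb (-0.48, adjusted p = 0.0470), and Olig1 and Bcas1 passed it in Cb alone. Tcf7l1, a transcription factor of the TCF family that represses Wnt target genes, differed by -0.03 in F/M and 0.28 in Cb, with no adjusted p under 0.319.

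Between 1 and 2 months, Enpp6 and Gpr17 were the DEGs among the 10 in F/M, and both were DEGs in Cb too, where 9.35% and 5.51% of all genes were DEGs. Between 2 and 3 months none of the 10 was a DEG in F/M, where 12.2% of all genes were; 2 of the 10 reached an unadjusted p under 0.05, as did 35.9% of all genes, and DESeq2 and limma-voom also called 0.

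**Figure D3:**
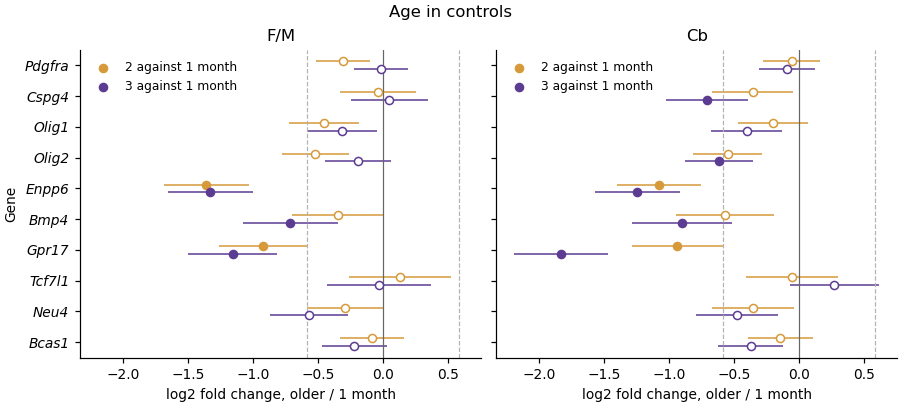
Points are log2 fold changes in controls (x axis) at 2 months (orange) and 3 months (purple) against 1 month for the 10 genes in F/M and Cb, lines their 95% intervals, filled points DEGs, and dashed lines 1.5-fold. Enpp6 and Gpr17 lie beyond the dashed line in both regions at both ages, and Pdgfra at 3 months lies at -0.01 and -0.09.

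The other lists of the lineage, which were chosen with earlier results of these data known, are given for comparison. Of 17 myelin and mature oligodendrocyte genes, 11 were lower and 0 higher at 3 than at 1 month in F/M, with a median log2 fold change of -0.66, and 10 were lower and 1, Trf (transferrin), was higher in Cb, with a median of -0.69. Over all genes 4.26% were lower DEGs in F/M and 2.75% in Cb, the shares to set beside the counts of lower genes in these lists, and the median was 0.0001 in F/M and 0.0051 in Cb. Ugt8a, a galactolipid synthase of myelin, fell by 1.08 in F/M and 1.23 in Cb, and Mal, a myelin membrane protein, by 1.07 and 1.10. Of 13 other newly formed oligodendrocyte genes 12 were tested, and 5 were lower in F/M and 4 in Cb. The long noncoding RNA 9630013A20Rik fell by 2.15 in F/M and 2.74 in Cb, and Casr, the calcium-sensing receptor, by 1.42 and 3.07. Of 15 other precursor genes 1 was lower in F/M (Pcdh15, a protocadherin, -0.62), and in Cb 2 were lower (Vcan, the proteoglycan versican, -0.76, and Tnr, tenascin-R, -0.62).

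RefSeq promoter entries (GRCm38.p6) matched 7 of the 10 genes. Of those 7, sequence is shown for Enpp6 and Bmp4, which fell with age in both regions, and for Pdgfra, which did not pass the test between 1 and 3 months. The 250 bases before the start are given on the gene's own strand, 5′ to 3′, and capitals mark each CANNTG, the E-box recognised by basic helix-loop-helix proteins such as OLIG1 and OLIG2; the motif reads the same on both strands.
Pdgfra, chr5:75152001-75152250, plus strand: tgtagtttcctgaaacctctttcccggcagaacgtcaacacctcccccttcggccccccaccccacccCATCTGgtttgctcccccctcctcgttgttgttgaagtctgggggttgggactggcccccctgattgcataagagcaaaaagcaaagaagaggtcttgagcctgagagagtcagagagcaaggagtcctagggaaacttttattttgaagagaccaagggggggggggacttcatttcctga
Enpp6, chr8:46986637-46986886, plus strand: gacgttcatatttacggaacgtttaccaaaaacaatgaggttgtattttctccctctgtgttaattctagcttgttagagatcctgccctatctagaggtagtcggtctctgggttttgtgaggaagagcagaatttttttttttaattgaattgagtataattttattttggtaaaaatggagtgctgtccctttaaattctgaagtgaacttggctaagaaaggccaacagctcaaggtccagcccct
Bmp4, chr14:46390670-46390919, minus strand: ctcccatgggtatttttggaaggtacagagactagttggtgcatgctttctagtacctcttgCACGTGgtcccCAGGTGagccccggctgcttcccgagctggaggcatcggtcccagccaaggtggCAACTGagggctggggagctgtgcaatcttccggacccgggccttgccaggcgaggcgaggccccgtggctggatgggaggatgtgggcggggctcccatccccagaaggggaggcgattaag
The Bmp4 window held 3 matches, the Pdgfra window 1 and the Enpp6 window 0. Of 32851 promoter windows of the same length, 66.2% held at least 1 match and 12.2% held at least 3, so the motif is common and its presence is a description of these letters only.

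The next comparison asked where the genes were more abundant in the control brain. Pdgfra, Cspg4, Gpr17 and Neu4 were lower in Cb than in F/M at all 3 ages, Tcf7l1 was the only gene that was higher in Cb, and Enpp6 and Bcas1 did not pass at any age. At 1, 2 and 3 months, DEGs numbered 6, 5 and 8 of the 10, where 36.9%, 39.3% and 37.7% of all genes were DEGs between the regions. Lower in Cb were 5, 5 and 7 of the 10, against 21.1%, 21.9% and 19.9% of all genes. The regions differ in cell makeup, which the 10 genes alone do not show: the summed level of 10 microglia markers was 428 to 547 CPM in control F/M and 160 to 221 CPM in control Cb.

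Pdgfra differed between the regions at every age. Its control values were 79.1, 84.7 and 90.7 CPM for F/M and 29.7, 35.95 and 30.7 CPM for Cb at 1 month, and the 9 control libraries of each region did not overlap (67.8 to 90.7 against 28.1 to 35.95 CPM). The log2 fold change was -1.40 (SE 0.12), -1.15 (SE 0.08) and -1.49 (SE 0.10) at 1, 2 and 3 months, with adjusted p-values of 1.35e-07, 2.09e-10 and 2.27e-08. In the same libraries the summed level of 11 meningeal fibroblast markers was 141 to 152 CPM in control F/M and 143 to 173 CPM in control Cb at 1 month, with overlap, and was higher in every control Cb library at 2 months (139 to 142 against 128 to 137 CPM) and 3 months (129 to 167 against 118 to 125 CPM). Their part in the Pdgfra values was not tested.

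The proteoglycan gene Cspg4 differed in Cb by -0.73, -1.05 and -1.49 on the log2 scale at 1, 2 and 3 months, with SEs of 0.13, 0.15 and 0.15. At 3 months its values were 24.0, 22.8 and 21.0 CPM for F/M against 7.52, 6.56 and 10.02 CPM for Cb. Summed mural cell markers, 10 genes, overlapped between the regions in controls at 1 month (277 to 312 CPM in F/M, 288 to 337 CPM in Cb) and 3 months (265 to 268 and 265 to 280 CPM), and were higher in every Cb library at 2 months (294 to 324 against 271 to 283 CPM); their part in the Cspg4 values was not tested. Gpr17 differed by -1.15 at 1 month, -1.17 at 2 months and -1.83 at 3 months (adjusted p = 8.07e-06, 1.37e-05 and 4.72e-09). Neu4, which encodes a sialidase, differed by -0.85, -0.91 and -0.76 (adjusted p between 2.75e-05 and 0.000343).

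Olig1, Olig2 and Bmp4 were lower in every control Cb library than in every control F/M library of the same age, as were 32.5%, 34.2% and 30.8% of all genes at 1, 2 and 3 months, but the fold minimum split their calls. Olig1 differed by -0.66, -0.41 and -0.75 and was a DEG at 1 and 3 months. Olig2 differed by -0.49, -0.52 and -0.92 and was a DEG at 3 months alone. Bmp4 differed by -0.45, -0.67 and -0.64 and was a DEG at 2 and 3 months. The highest adjusted p among these differences was 0.0492, for Bmp4 at 3 months.

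Tcf7l1 read 3.27, 1.94 and 3.13 CPM for F/M against 5.15, 4.82 and 4.19 CPM for Cb at 1 month, and 3.16, 2.49 and 2.51 against 4.87, 5.64 and 6.605 CPM at 3 months. It was higher in Cb by 0.77 (SE 0.22, adjusted p = 0.00772), 0.58 (SE 0.15, adjusted p = 0.00237) and 1.06 (SE 0.19, adjusted p = 0.000255), and the value at 2 months fell just short of 1.5-fold. Enpp6 differed by -0.12, 0.16 and -0.04, with 95% intervals that reached at most -0.41 and 0.47, and Bcas1 by -0.08, -0.14 and -0.24. Of the 15 other precursor genes, 9, 8 and 9 were lower DEGs in Cb at the 3 ages and 0, 3 and 0 were higher, with medians of -0.76, -0.65 and -0.84 beside medians over all genes of 0.0204, -0.0057 and 0.0416. Of the 17 myelin genes 2, 2 and 3 were lower and none higher. Over all genes 21.1%, 21.9% and 19.9% were lower DEGs at the 3 ages, and 36.9%, 39.3% and 37.7% were DEGs in either direction.

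**Figure D4:**
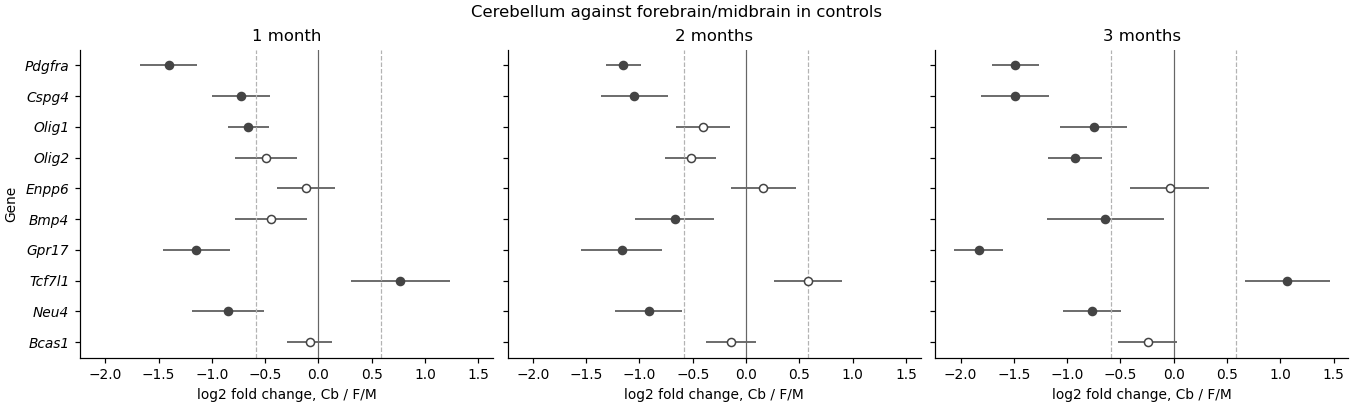
Points are log2 fold changes of Cb against F/M in controls (x axis) for the 10 genes at 1, 2 and 3 months, lines their 95% intervals, filled points DEGs and dashed lines 1.5-fold. Pdgfra lies at -1.40, -1.15 and -1.49, Enpp6 and Bcas1 stay near 0, and Tcf7l1 alone lies clearly to the right.

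The main comparison of the study was Tpp1-/- against control. None of the 10 genes was a DEG in either region at 1, 2 or 3 months. Among all genes, F/M gave 0.0112%, 0.737% and 0.464% DEGs at the 3 ages and Cb gave 0.0112%, 2.05% and 0.859%, so a count of 0 among 10 is near that background. At an unadjusted p under 0.05 edgeR counted 0, 5 and 2 of the 10 in F/M at 1, 2 and 3 months, where 1.89%, 16.9% and 5.94% of all genes reached it, and 1, 2 and 1 in Cb, where 7.66%, 9.67% and 6.49% did. DESeq2 and limma-voom called 0 of 10 in all 6 comparisons. Across the 60 fold changes the log2 values ran from -0.43 to 0.46, and their 95% intervals from -0.87 to 0.97. The widest intervals belonged to Bmp4 at 3 months.

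**Figure D5:**
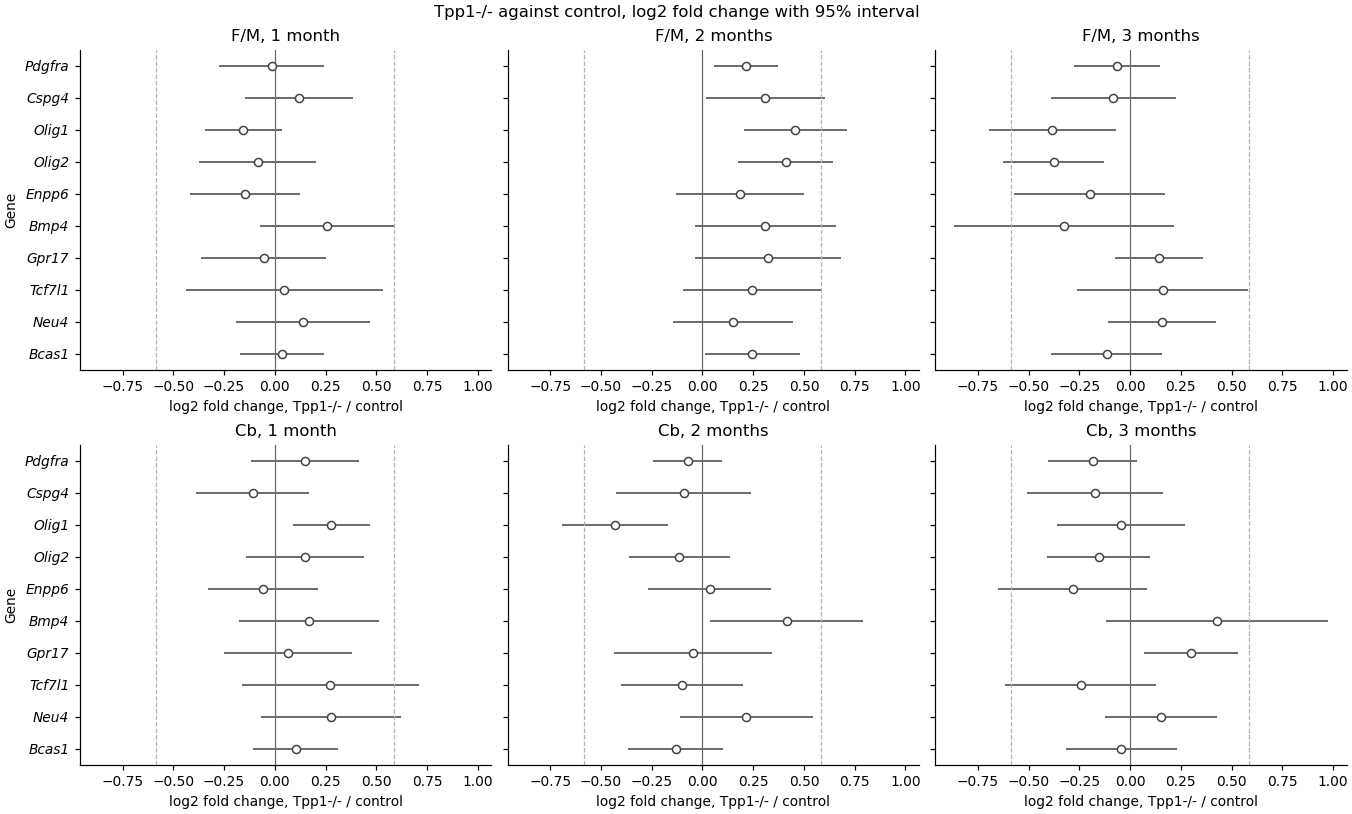
Points are log2 fold changes of Tpp1-/- against control (x axis) for the 10 genes in F/M (top) and Cb (bottom) at 1, 2 and 3 months; lines are 95% intervals and dashed lines 1.5-fold. No gene is a DEG, so all points are open; all 10 points lie above 0 in F/M at 2 months, and Olig1 lies at 0.46 in F/M and -0.43 in Cb at that age.

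Of the 10 log2 fold changes, 5 were positive and 5 negative in F/M at 1 month (median 0.01), where 48.8% of all genes were positive. In Cb at 1 month 8 were positive and 2 negative (median 0.15), where 51.3% were positive. At 3 months 3 were positive and 7 negative in each region, where 49.2% were positive. At 2 months the signs also differed between the regions. In F/M all 10 were positive, with a median log2 fold change of 0.28 beside 0.0039 over all genes, of which 50.8% were positive. Without Tpp1-/- replicate 1 the median was 0.11, with 9 positive and 1 negative, Enpp6 (-0.07, adjusted p = 0.900); without Tpp1-/- replicate 2 it was 0.35, with all 10 positive. In Cb at 2 months 3 were positive and 7 negative, with a median of -0.08 beside 0.0000 over all genes, of which 50% were positive. Without regard to fold, 2 genes passed the adjusted threshold in F/M, Olig1 (0.46, SE 0.12, adjusted p = 0.0699) and Olig2 (0.41, SE 0.11, adjusted p = 0.0772), where 3.17% of all genes passed. In Cb 1 gene passed, Olig1, in the opposite direction (-0.43, SE 0.12, adjusted p = 0.0942), where 3.08% did.

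Olig1 (ENSMUSG00000046160, chr16:91269772-91271933, plus strand, GRCm38) and Olig2 (ENSMUSG00000039830, chr16:91225457-91228677, plus strand, GRCm38) lie close together on 1 chromosome. Olig1 in F/M at 2 months read 83.1, 89.5 and 95.9 CPM in controls and 144, 95.2 and 130 CPM in Tpp1-/-. The groups overlapped, because Tpp1-/- replicate 2 lay just under the highest control. Olig2 read 24.9, 20.3 and 23.6 CPM in controls and 35.8, 24.7 and 30.7 CPM in Tpp1-/-, with the same replicate inside the control range. Without Tpp1-/- replicate 2, Olig1 differed by 0.60 (adjusted p = 0.00930) and became a DEG, and Olig2 differed by 0.53 (adjusted p = 0.0132). Without Tpp1-/- replicate 1 they differed by 0.32 (adjusted p = 0.358) and 0.26 (adjusted p = 0.40). Each gene passed in 2 of the 6 removals of an F/M library, the other being control replicate 1 (adjusted p = 0.0576 for Olig1 and 0.0232 for Olig2). With only the 6 F/M libraries in the fit, the adjusted p-values were 0.190 for Olig1 and 0.232 for Olig2.

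In Cb at 2 months Olig1 read 74.4, 65.2 and 63.3 CPM in controls and 54.0, 42.1 and 54.5 CPM in Tpp1-/-, with every Tpp1-/- library below every control. Olig2 was also below every control there, at 15.1, 13.7 and 15.6 against 15.8, 16.4 and 15.7 CPM (-0.11, adjusted p = 0.877). Non-overlap in that direction was seen for 10.5% of all genes. For Olig1, leaving out any of the 6 libraries raised the adjusted p to between 0.110 and 0.431, with log2 fold changes from -0.49 to -0.32. The remaining genes passed no adjusted threshold at 2 months. Pdgfra was higher in every Tpp1-/- F/M library (91.2, 75.7 and 73.4 against 71.2, 67.8 and 68.6 CPM, log2 fold change 0.22, adjusted p = 0.160), as were Bmp4 and Tcf7l1, and 9.46% of all genes showed that non-overlap. Without Tpp1-/- replicate 1, Pdgfra differed by 0.10 (adjusted p = 0.605), Bmp4 by 0.29 and Tcf7l1 by 0.24, and Cspg4, at 0.31 with all libraries, by 0.03. Without Tpp1-/- replicate 2, Pdgfra differed by 0.25, Bmp4 by 0.29, Tcf7l1 by 0.27 and Cspg4 by 0.46 (adjusted p = 0.0685). Bmp4 was also higher in every Tpp1-/- Cb library (2.84, 2.63 and 2.87 against 2.19, 2.31 and 1.75 CPM, 0.42, adjusted p = 0.428), as were 7.65% of all genes.

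Other tissue markers moved beside Olig1 at 2 months. The summed level of 13 midbrain and thalamus markers was 299 to 369 CPM in control and 360 to 436 CPM in Tpp1-/- F/M, and 240 to 267 CPM in control and 184 to 212 CPM in Tpp1-/- Cb. In Cb 3 of the 13 were lower DEGs and 0 higher, where 2.05% of all genes were DEGs. They included Six3, a transcription factor, and Slc17a6, a glutamate transporter of midbrain and thalamic neurons. At 2 months 4 of the 13 had 3 counts or fewer in every Tpp1-/- Cb library against 1 of 13 in controls. At 1 month that count was 1 in Tpp1-/- and 4 in control Cb, and at 3 months it was 1 in both. Choroid plexus markers, 12 genes, summed to 251 to 642 CPM in control and 552 to 745 CPM in Tpp1-/- F/M, and to 1005 to 1302 CPM in control and 1642 to 1820 CPM in Tpp1-/- Cb. Astrocyte markers, 7 genes, summed to 4660 to 5630 CPM in control and 5932 to 7322 CPM in Tpp1-/- F/M, where they did not overlap, and to overlapping values in Cb. Cortex and striatum markers, 9 genes, summed to 868 to 885 CPM in control and 766 to 778 CPM in Tpp1-/- F/M. Mural cell markers, 10 genes, summed to 271 to 283 CPM in control and 292 to 356 CPM in Tpp1-/- F/M, without overlap, and to overlapping values in Cb. Meningeal fibroblast markers also did not overlap in F/M (128 to 137 against 127 to 128 CPM), nor cerebellum markers in Cb (8739 to 8817 against 8871 to 9859 CPM). The 15 other precursor genes summed to 970 to 1135 CPM in control and 1144 to 1294 CPM in Tpp1-/- F/M, without overlap. In Cb their sums overlapped. The part of these markers in the differences of Olig1, Olig2 and Cspg4 was not tested.

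At 1 and 3 months none of the 10 passed the adjusted threshold at any fold, where 0.0112% and 0.488% of all genes passed in F/M and 0.0112% and 0.952% in Cb. At 1 month Olig1 lay in opposite directions in the regions, with 110, 115 and 102 CPM in Tpp1-/- against 115, 132 and 117 CPM in control F/M, and 95.6, 97.7 and 86.4 CPM against 74.2, 84.4 and 72.1 CPM in Cb. Every Tpp1-/- library was below every control in F/M (-0.15, adjusted p = 1.00) and above every control in Cb (0.28, adjusted p = 0.630). Non-overlap in these directions was seen for 6.49% and 4.26% of all genes. Summed microglia markers were also without overlap in these libraries, at 428 to 455 CPM in control and 462 to 501 CPM in Tpp1-/- F/M, and at 160 to 197 and 201 to 224 CPM in Cb, as were meningeal fibroblast markers in Cb, at 143 to 173 and 178 to 210 CPM. Their part in the Olig1 values was not tested. Bmp4 was higher in every Tpp1-/- F/M library, at 5.04, 4.86 and 5.08 CPM against 3.55, 4.32 and 4.61 CPM (0.26, adjusted p = 1.00), and 8.31% of all genes showed that non-overlap.

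At 3 months Olig1 and Olig2 lay lower in every Tpp1-/- F/M library. Olig1 read 76.8, 77.1 and 71.7 CPM against 102, 102 and 89.9 CPM in controls (-0.38, SE 0.15, adjusted p = 0.666), and Olig2 read 19.3, 25.7 and 21.3 CPM against 29.6, 30.4 and 26.1 CPM (-0.38, SE 0.11, adjusted p = 0.368). Bcas1 was lower in every Tpp1-/- F/M library too, at 156, 177 and 174 CPM against 186, 181 and 182 CPM (-0.11, adjusted p = 1.00). Of all genes 12.3% showed that non-overlap. Gpr17 was higher in every one, at 65.1, 71.5 and 67.0 CPM against 60.9, 63.0 and 60.6 CPM (0.14, adjusted p = 1.00), which 11.8% of all genes showed. The midbrain and thalamus markers summed to 397 to 413 CPM in control and 286 to 332 CPM in Tpp1-/- F/M at that age, and microglia markers to 491 to 520 CPM and 645 to 714 CPM. Astrocyte markers (6847 to 6997 against 7054 to 7667 CPM), mural cell markers (265 to 268 against 256 to 262 CPM) and 10 cerebellum markers (293 to 316 against 258 to 289 CPM) did not overlap there either. The 17 myelin and mature oligodendrocyte genes, at 7088 to 7376 against 5990 to 6647 CPM, did not overlap either. The part of these markers in these values was not tested. In Cb at 3 months Gpr17 was higher in every Tpp1-/- library, at 19.7, 19.3 and 25.0 CPM against 16.0, 17.9 and 17.9 CPM (0.30, SE 0.11, adjusted p = 0.506), and 4.46% of all genes showed that non-overlap. Olig2 was lower in every Tpp1-/- Cb library, at 14.7, 13.3 and 12.7 CPM against 14.8, 15.4 and 15.2 CPM (-0.15, adjusted p = 0.941), which 4.2% of all genes showed. Microglia markers, 10 genes, summed to 176 to 219 CPM in control and 365 to 562 CPM in Tpp1-/- Cb at that age, and 6 of them were higher DEGs, where 0.859% of all genes were DEGs. Among these were C1qa, C1qb and C1qc, subunits of a complement component, and Ctss, a lysosomal protease, with log2 fold changes of 1.96, 1.62, 1.76 and 1.44. Astrocyte markers summed to 5671 to 5815 CPM in control and 6162 to 6443 CPM in Tpp1-/- Cb. The part of both lists in the Gpr17 and Olig2 values was not tested.

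Whether the Tpp1-/- effect differed between the regions was tested as an interaction, the effect in Cb minus the effect in F/M, with an adjusted p under 0.1 and no fold minimum. At 2 months Olig1 passed with a difference of -0.89 (SE 0.17, adjusted p = 0.00704), the only one of the 10, where 2.97% of all genes passed. It passed after leaving out each of the 12 libraries in turn, with differences from -1.03 to -0.74 and adjusted p-values from 0.000305 to 0.0275. Olig2 differed by -0.52 (SE 0.16, adjusted p = 0.130), and passed in the absence of F/M Tpp1-/- replicate 2 (-0.65, adjusted p = 0.0184) or F/M control replicate 1 (-0.58, adjusted p = 0.0564). With the replicate number as an animal block, 4 of the 10 passed at 2 months, Olig1 (-0.88), Olig2 (-0.52), Bcas1 (-0.38) and Gpr17 (-0.36), where 498 of all 17229 genes passed. At 1 month none of the 10 passed, where 0% of all genes did; 1 reached an unadjusted p under 0.05, as did 1.94% of all genes, and it was Olig1, with a difference of 0.43 (adjusted p = 1.00). At 3 months none passed either, where 0.00581% did, with 0 at an unadjusted p under 0.05, which 3.51% of all genes reached. DESeq2 and limma-voom also called 0 at 1 and 3 months.

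Whether the Tpp1-/- effect differed between ages was tested in the same way in the fit of the 36 libraries, in 6 contrasts that share their groups. In F/M the effect at 3 months minus that at 2 months was -0.83 for Olig1 (SE 0.19, adjusted p = 0.0560) and -0.78 for Olig2 (SE 0.18, adjusted p = 0.0654), where 0.393% of all genes passed. Olig1 passed after 3 and Olig2 after 4 of the 12 removals of a library. In Cb the effect at 2 months minus that at 1 month was -0.71 for Olig1 (SE 0.19, adjusted p = 0.0706), where 1.28% passed, and it passed after 5 of 12 removals. The other 4 contrasts gave 0 of 10 by edgeR, DESeq2 and limma-voom, where 0.0218% to 1.44% of all genes passed. At an unadjusted p under 0.05 the 10 gave 2 genes at 2 against 1 months in F/M, where 8.81% of all genes reached it, 1 at 3 against 1 months in F/M (5.41%), 2 at 3 against 1 months in Cb (7.91%) and 0 at 3 against 2 months in Cb (6.41%). Age cannot be told apart from how the libraries of each age were prepared or counted. These contrasts therefore rest on the controls and Tpp1-/- libraries of an age having been prepared and counted in the same way.

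The partners of the 10 genes were followed in lists chosen in the same way. In the PDGF pathway (Pdgfa, Pdgfb, Pdgfc, Pdgfd and Pdgfrb, ligands and the second receptor), 0 of 5 were DEGs in any of the 6 comparisons of Tpp1-/- with control. In the BMP pathway 0 of 22 ligands, receptors, SMADs, antagonists and Id targets were DEGs; Smad5, which carries the signal of BMP4 to the nucleus, passed the adjusted threshold in F/M at 2 months (0.30, adjusted p = 0.0349). In the Wnt and TCF list 1 of 13 was a DEG, Tcf7l2, in Cb at 2 months alone, with a mean of 4.45 CPM in Tpp1-/- and 35.0 CPM in controls (-3.00, SE 0.12, adjusted p = 9.50e-12). Tcf7l2, a TCF factor of maturing oligodendrocytes, is also strongly expressed by thalamic and midbrain neurons. The part of the lower midbrain and thalamus markers of these libraries in that value was not tested. In F/M at 2 months it differed by 0.50 (adjusted p = 0.0210). Tcf7l1 differed by -0.10 in Cb (95% interval -0.40 to 0.20). Of the 3 other sialidases, 0 were DEGs in the 6 comparisons. Over all genes the share of DEGs in the 6 comparisons was 0.0112% to 2.05%, and 3.17% passed at any fold in F/M at 2 months.

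The lists of the same lineage were also described beside those shares. Among the 15 other precursor genes 1 was a DEG, Rlbp1, which encodes a retinoid-binding protein and was higher in Cb at 2 months (0.60, SE 0.13, adjusted p = 0.0172). In F/M at 2 months 12 of the 15 log2 fold changes were positive, with a median of 0.17 beside 0.0039 over all genes, of which 50.8% were positive. Sox6, Ptprz1 and Lhfpl3, 3 of the 15, passed at any fold (0.44, 0.39 and 0.27, adjusted p = 0.0349, 0.0404 and 0.0460), as did 3.17% of all genes. Astrocyte markers were higher in every Tpp1-/- F/M library of that age (5932 to 7322 against 4660 to 5630 CPM). Their part in these values was not tested. Among the 12 newly formed oligodendrocyte genes tested and the 17 myelin genes there was no DEG in the 6 comparisons. At 3 months all 17 myelin genes had negative log2 fold changes in Tpp1-/- F/M, with a median of -0.21, and none passed the adjusted threshold; over all genes 50.7% were negative, with a median of -0.0026. At 2 months in Cb 16 of 17 were negative, with a median of -0.16, against 49.9% and 0.0000 over all genes. There 2 of the 17, Opalin (-0.58, adjusted p = 0.0179) and Mog (-0.34, adjusted p = 0.0238), both myelin membrane proteins, passed at any fold, as did 3.08% of all genes.

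Within groups, the 10 genes differed in how far they moved together from library to library. As a description over the 36 libraries, in each of which all genes share a depth and a piece of tissue, the deviation of a gene from its own group mean correlated with the mean deviation of the other 9 at r = 0.820 for Gpr17, 0.731 for Olig2, 0.587 for Pdgfra, 0.578 for Cspg4, 0.562 for Bcas1, 0.532 for Neu4, 0.463 for Enpp6 and 0.390 for Olig1. Bmp4 (r = 0.026) and Tcf7l1 (r = -0.204) stood outside. The 5 other genes whose deviations were most like the mean of the 10 were Sirt2 (r = 0.794), Sulf2 (0.791), Rab31 (0.769), Gm15564 (0.728) and Fermt2 (0.722), over the same 36 libraries.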

How the data were processed

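RNA was extracted with TRIzol and column purification, libraries were made with a stranded mRNA kit and read as short single ends. Per the labels and file headers, the authors aligned reads with STAR 2.5.2b to mm10 and deposited raw counts per gene from featureCounts, with no normalisation. The deposited counts of 1, 2 and 3 months used GENCODE M21, M16 and M18, featureCounts 1.6.3, 1.6.2 and 1.6.2, and strand settings 1, 2 and 1. Totals ran from 10609896 to 29942380 counts, which limits precision most for Bmp4 and Tcf7l1.

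From these counts, each age (12 libraries, 17916, 17229 and 17224 genes passing filterByExpr) was fitted with edgeR 4.0.16 in R 4.3.3 (TMM, quasi-likelihood test). Age contrasts came from a fit of 36 libraries and 18322 genes. P-values were adjusted by Benjamini-Hochberg over all genes tested. DEGs changed by 1.5-fold or more at an adjusted p below 0.1, and interactions had no fold minimum; 24 comparisons were made. Alternatives were DESeq2 1.42.0, limma-voom (limma 3.58.1), other scalings and filters, sex, a replicate block, the compared libraries alone, and each library left out. The code was tested on simulated data.

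The members and lists were chosen with earlier results of these data known. All 10 members are named, and of the other lists some members that passed a threshold are named, at most 4 per comparison, and the rest are counted. The labels do not state that same-numbered libraries come from one animal, nor that animals were not pooled, so p-values cover the spread between these libraries. Deviations of same-numbered libraries correlated above 0.1 for all 3 numbers only between F/M and Cb controls at 1 month (r = 0.198, 0.124 and 0.131), where a block for the number left the count of DEGs at 6 of 10. RefSeq promoters were not used for Olig1, Gpr17 and Bcas1. Results for some genes of the other lists are not reported here.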

Additional observations from a re-analysis of the deposited data

Results flagged for a closer look

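Differences between groups in the Tpp1-/- effect passed the adjusted threshold for Olig1 and Olig2. For Olig1 at 2 months, the Cb effect less the F/M effect was -0.89 on the log2 scale, and it passed in all 12 removals of a library. In Cb, the Olig1 effect at 2 months minus that at 1 month was -0.71, which no longer passed in 7 of 12 removals. In F/M, the effect at 3 months minus that at 2 months was -0.83 for Olig1 and -0.78 for Olig2, which no longer passed in 9 and 8 of 12 removals. The Cb and the F/M comparison of ages share no library, but each shares its libraries of 2 months with the comparison of regions, so neither is independent of that one. The midbrain and thalamus markers summed to 240 to 267 CPM in control and 184 to 212 CPM in Tpp1-/- Cb at 2 months. In F/M they summed to 299 to 369 and 360 to 436 CPM at 2 months, with overlap, and to 397 to 413 and 286 to 332 CPM at 3 months. Other lists also differed without overlap in these libraries. Among them were astrocyte markers in F/M at 2 months (4660 to 5630 and 5932 to 7322 CPM). Choroid plexus markers in Cb did so at 2 months (1005 to 1302 and 1642 to 1820 CPM). Microglia markers did so in Cb at 1 month (160 to 197 and 201 to 224 CPM) and in F/M at 3 months (491 to 520 and 645 to 714 CPM). The part of all these markers in these differences was not tested. Groups of 3 libraries were not searched for single outlying values.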

How the results depend on the processing

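No result changed direction past a threshold. The number of the 10 genes called stayed within 1.5 times in 177 of 198 repeats that left out a library and in 158 of 163 other repeats. Without the fold minimum, Tpp1-/- F/M at 2 months gave 2 genes and Tpp1-/- Cb of that age 1, against 0 and 0. With no filter on low counts, the region by genotype test at 2 months called 3 genes and the comparison of the Tpp1-/- effect at 2 and 1 months in F/M called 1, against 1 and 0. Leaving out single libraries gave 0 to 1 genes for Tpp1-/- in F/M at 2 months, where Tpp1-/- replicate 2 alone gave 1. The region by genotype test at 2 months gave 1 to 2, with 2 in the absence of F/M control replicate 1 or Tpp1-/- replicate 2. The change of the Tpp1-/- effect gave 0 to 1 from 1 to 2 months in Cb, 0 to 1 from 1 to 3 months in Cb, where 1 came without Tpp1-/- Cb replicate 1 of 3 months, and 0 to 2 from 2 to 3 months in F/M. The causes were not tested. The counts over all genes behind the printed shares also moved with a library left out. For Tpp1-/- against control they went from 2 to 1 to 2 in F/M and from 2 to between 1 and 272 in Cb at 1 month (272 without Tpp1-/- replicate 3), from 127 to 20 to 352 in F/M at 2 months, and at 3 months from 80 to 34 to 66 in F/M and from 148 to 104 to 206 in Cb. The region by genotype count went from 511 to 324 to 832 at 2 months and from 1 to 0 to 23 at 3 months. The change of the Tpp1-/- effect from 1 to 3 months in Cb went from 84 to 56 to 1590 (1590 without Tpp1-/- replicate 1 of 3 months), that from 2 to 3 months in F/M from 72 to 24 to 101, that from 1 to 2 months in Cb from 235 to 153 to 343, and those in F/M from 1 month from 4 to 0 to 7 and from 28 to 13 to 30. In controls, the change from 1 to 2 months in F/M went from 1714 to 1066 without the 2-month replicate 2, that from 1 to 3 months in F/M from 996 to 645 or 660 without the 3-month replicate 1 or 2, and that in Cb from 1076 to 673 without the 1-month replicate 3. With the compared libraries alone in the fit, Tpp1-/- against control gave 38 for F/M at 2 months, 309 for F/M at 3 months and 46 for Cb of that age, against 127, 80 and 148. Requiring a call from all of the tools left 71 in F/M at 2 months. DESeq2 gave 4 and 5 in F/M and Cb at 1 month against 2 and 2, 10 against 1 for region by genotype at 3 months, and in F/M 89 against 4, 49 against 28 and 130 against 72 for the change of the effect from 1 to 2, 1 to 3 and 2 to 3 months. With an animal block, region by genotype gave 5 against 0 at 1 month and 0 against 1 at 3 months. With no filter, Tpp1-/- against control gave 16, 222 and 189 in F/M at 1, 2 and 3 months and 82 and 296 in Cb at 1 and 3 months, region by genotype 28, 782 and 75, and the change of the effect 194, 96 and 254 in F/M and 515, 270 and 421 in Cb, against 263 for the last. With an unadjusted p under 0.1 in place of the adjusted one, Tpp1-/- against control gave 312, 573 and 614 in F/M and 570, 786 and 716 in Cb.

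With same-numbered libraries as a replicate block, 0 of 10 genes were called in each of the 6 comparisons of Tpp1-/- with control. The region by genotype test at 2 months called 4 genes with the number as an animal block, against 1, and 498 of all genes against 511. Over all genes the same-numbered libraries of 2 months correlated between regions at r = -0.031, 0.013 and -0.013 in controls. In Tpp1-/- they correlated at 0.099, 0.094 and 0.058. These values lie under the 0.1 used above, which does not settle whether same-numbered libraries are pairs. Same-numbered libraries of the regions carry the same sex and genotype labels. Over the 10 genes replicate 1 lay above and replicate 2 below the mean in all 4 groups.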
